A study of Mus musculus with 12 samples.

Results

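M300013841 and M400015708 are 2 probes of an Agilent two-colour array whose spleen signal was high in 1 of 2 Trex1 knock-in mice and not in the other. They were taken by name from the 35852 mouse probes of the array. Both had been selected on the log2 ratios of these same arrays, M300013841 because it was raised in D272fs and M400015708 because it was raised in V235fs. The differences between the groups are therefore given here as a description, and no test of either probe on these comparisons is offered as support. Spleen RNA came from C57BL6 mice in 3 groups of 4 samples: mice with conditional expression of TREX1 V235fs, mice with conditional expression of TREX1 D272fs, and control mice. The source names of both knock-in groups describe the gene as human. The labels give V235fs as the most frequent mutation of retinal vasculopathy with cerebral leukodystrophy (RVCL) and D272fs as a C-terminal mutation from a case of systemic lupus erythematosus. They give no age or sex, do not say which driver switches on the conditional allele, and do not say whether the controls carried it. The labels do not tie samples to single animals, so the SDs given here may be technical.

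TREX1 is an exonuclease that degrades DNA from a free end and sits at the endoplasmic reticulum, held there by its C-terminal tail. Without its activity, DNA in the cytosol activates the cGAS and STING sensors and the type I interferon response. Frameshifts near the end of the protein, such as those knocked in here, remove the tail. On a two-colour array each probe is a short DNA strand that captures labelled cDNA. Here the spleen cDNA carried Cy3 and a universal reference RNA carried Cy5, so a probe's ratio can move because either channel moves.

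The sequence column of the scanner files gives both probes as 60-base strands, shown here because it is the only description of what they detect. In the lines below the capitals mark every stop codon (TAA, TAG or TGA) in the 3 reading frames of the strand as printed.
M300013841: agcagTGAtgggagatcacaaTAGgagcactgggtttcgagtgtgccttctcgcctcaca
M400015708: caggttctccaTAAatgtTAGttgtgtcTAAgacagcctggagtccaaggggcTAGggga

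M300013841 held 1 reading frame without a stop, the one that starts at base 2 and runs for 19 codons, while the frames starting at bases 1 and 3 stopped at bases 22 and 6. Its strand could thus be coding sequence in that frame, and the letters alone do not show that it is. On the reverse complement 1 frame was open as well. M400015708 had a stop in each of its 3 frames, at bases 19, 29 and 12 (and again at 54), so it cannot be read through as protein in any frame of this strand, nor in any frame of the reverse complement. An open frame on the strand as printed was held by 89.9% of the 34815 mouse probes of 60 bases. M400015708 belonged to the 2.34% with no open frame on either strand. The base composition of both was near that of the array: M300013841 had 53.3% G and C and M400015708 had 50%, against a median of 48.3% (quartiles 45% and 51.7%).

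Neither probe was matched to a gene, and no mouse genome, transcript or protein sequences were available to search. The files repeat the probe name in the gene column, give the description as unknown and the position as unmapped, although the header names the mm8 build for the array design. No stretch of 25 or more bases, on either strand, was shared with another mouse probe, with the 32851 RefSeq promoter windows of GRCm38.p6 (300 bases each) or with 1005 RefSeq miRNA hairpins. The longest shared stretches were 17 bases for M300013841 and 14 for M400015708, both within promoter windows. These sequences do not cover the bodies of most transcripts, so the lack of a match does not show what either probe detects. No chromosome, exon or UTR is therefore given for either. Of the other mouse probes, none shared more than 13 bases with a member. Probes for other parts of the same transcript need share no bases, so this search could not find them. The gene lists that had been planned (interferon-stimulated genes and markers of spleen cell types, pancreas and fat) need gene names and were not run. Whether cell makeup moved with either probe was not tested, and in whole spleen fewer cells of a type and less RNA per cell cannot be told apart.

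Each knock-in filled 1 slide of its own, and both slides were scanned on 1 day. The controls were spread over 3 slides scanned on 2 other days. Slide and scan day therefore cannot be told apart from genotype in the comparisons with control, nor slide in the comparison of the knock-ins. D272fs replicate 3 stood apart, with a mean correlation of 0.865 to its group against 0.928 to 0.934 for the other 3 arrays. The background model put its Cy3 background at −391.71, where its negative control spots averaged 21.9, and with a background from those spots its correlation was 0.963. For V235fs replicate 4 the model gave −21.6, where the negative control spots averaged 20.4. The correlation of that array to its group was 0.973. In the file of D272fs replicate 4 all spot means were rounded to 3 significant digits. Between 69.2% and 74.9% of an array's mouse probes exceeded the Cy3 background by the scanner software's criterion. Both members met it in both channels on all 12 arrays, and none of their spots was saturated or marked as an outlier.

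M300013841 was high in the D272fs spleen and near its control level in the V235fs spleen. Its Cy3 signal, as spot mean minus local background, was 915, 944, 1013 and 1416 on D272fs replicates 1 to 4. It was 361, 381, 437 and 415 on V235fs replicates 1 to 4, and 507, 506, 955 and 335 on control replicates 1 to 4. On this raw scale control replicate 3 lay inside the D272fs range. That array was also the brightest, with a median Cy3 signal of 190 over mouse probes against 69.5 to 105 on the other arrays.

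Divided by the median of its own array, the Cy3 signal of M300013841 was 11.6, 11.8, 13.1 and 16.2 in D272fs. The same quantity was 5.19, 5.22, 5.78 and 5.27 in V235fs and 6.94, 4.80, 5.03 and 3.59 in control. On this scale the D272fs arrays stood clear of all 8 others, while the V235fs arrays lay inside the control range.

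The Cy5 signal of M300013841, from the reference RNA, was 1053, 1099, 1061 and 1065 in D272fs and 1165, 1244, 1277 and 1293 in V235fs. In control it was 1107, 1475, 1561 and 491, with control replicate 4 far below the others. Both knock-ins varied little here, and both lay within the wide control range.

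The log2 ratio of spleen over reference, after background correction and loess, combined the channels. For M300013841 it was 0.84, 0.93, 0.56 and 1.43 on D272fs replicates 1 to 4. It was −0.54, −0.61, −0.47 and −0.57 in V235fs and −0.47, −0.38, −0.53 and −0.48 in control. The D272fs arrays did not overlap the others, with replicate 4 the highest and replicate 3 the lowest. The V235fs and control arrays overlapped each other.

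The D272fs mean of M300013841 was 0.94 ± 0.36 and the control mean −0.46 ± 0.06 (SD, n = 4 each). The log2 difference was 1.40 (SE 0.14), or 2.64-fold. The V235fs mean was −0.55 ± 0.06 (SD, n = 4), which differed from control by −0.085, with a 95% interval from −0.40 to 0.23. That interval, like the SEs, rests on a spread shared by all 3 groups, and D272fs was the most spread. In a fit of only V235fs and control the SE of this difference was 0.068, against 0.14 here. D272fs lay above V235fs by 1.49 (SE 0.14), a comparison made within 1 scan day. Without D272fs replicate 3 the D272fs mean was 1.07 ± 0.31 (SD, n = 3) and the difference from control 1.53. With the background from negative control spots that replicate read 1.09 instead of 0.56, and the difference from control was 1.55.

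Nearly the whole of this difference lay in the spleen channel. The channel values were split from the loess log ratio and a mean intensity that was quantile-normalised between arrays. Cy3 minus Cy5 therefore equals the log ratio by construction, and D272fs replicate 3 enters with its modelled background. In this split Cy3 of M300013841 was 10.63 ± 0.30 in D272fs, 9.44 ± 0.04 in V235fs and 9.30 ± 0.28 in control (log2 signal, SD, n = 4 each). Cy5 was 9.69 ± 0.07, 9.99 ± 0.04 and 9.76 ± 0.26 in the same order. D272fs thus differed from control by 1.34 (SE 0.16) in Cy3 and by −0.063 (SE 0.10) in Cy5. Between the knock-ins Cy5 contributed more, at −0.29 (SE 0.10), against 1.20 (SE 0.16) in Cy3. Without D272fs replicate 3 the D272fs means were 10.73 ± 0.27 in Cy3 and 9.67 ± 0.04 in Cy5 (SD, n = 3).

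M400015708 was high in the V235fs spleen. Its raw Cy3 signal was 908, 789, 926 and 1052 on V235fs replicates 1 to 4. It was 328, 401, 462 and 422.5 on the D272fs arrays and 398, 574, 946 and 769 on the control arrays. The control arrays reached from the D272fs level up to the V235fs level on this scale.

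Divided by the array median, the Cy3 signal of M400015708 was 13.1, 10.8, 12.2 and 13.3 in V235fs. It was 4.16, 5.01, 5.96 and 4.83 in D272fs and 5.44, 5.45, 4.98 and 8.25 in control. The V235fs arrays then stood above all others, and control replicate 4 was the highest of the remaining 8.

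The reference channel of M400015708 did not stay level. Its raw Cy5 signal was 1805, 1904, 1874 and 1862 in V235fs and 1726, 1902, 1789 and 1633 in D272fs. It was 2664, 2977.5, 3122 and 1623 in control. Relative to the array's median Cy5 signal the control arrays read 33.7, 22.1, 20.2 and 22.6, all above the 13.7 to 18.9 of the knock-in arrays.

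The log2 ratio of M400015708 was 0.22, −0.11, 0.12 and 0.28 on V235fs replicates 1 to 4. It was −1.27, −1.03, −0.70 and −0.89 in D272fs and −1.98, −1.11, −1.49 and −0.88 in control. The V235fs arrays lay above all 8 others, whereas D272fs and control overlapped. The control arrays were the most spread, and replicates 1 and 4, at opposite ends, shared a scan day.

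The V235fs mean of M400015708 was 0.13 ± 0.17 and the control mean −1.37 ± 0.48 (SD, n = 4 each). The log2 difference was 1.49 (SE 0.21), or 2.82-fold. The D272fs mean was −0.97 ± 0.24 (SD, n = 4). It lay 0.39 (SE 0.21) above control, with a 95% interval from −0.062 to 0.85, but below control under scale normalisation (−0.50), with median centring (−0.064) and in Cy3 alone (−0.13). D272fs minus V235fs was −1.10 (SE 0.21) within their shared scan day. Without D272fs replicate 3 the D272fs mean was −1.06 ± 0.19 (SD, n = 3) and the gap between the knock-ins −1.19.

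For this probe the reference held part of the difference from control. Split from the log ratio in the same way, Cy3 of M400015708 was 10.59 ± 0.14 in V235fs, 9.42 ± 0.25 in D272fs and 9.55 ± 0.42 in control (log2 signal, SD, n = 4 each). Cy5 was 10.47 ± 0.04, 10.39 ± 0.09 and 10.92 ± 0.17 in the same order. V235fs thus differed from control by 1.04 (SE 0.19) in Cy3 and by −0.45 (SE 0.08) in Cy5. In this split 30.2% of the log ratio difference fell to the reference channel. In D272fs the Cy5 difference was −0.53 (SE 0.08) and the Cy3 difference −0.13 (SE 0.19). The positive ratio difference there fell wholly to the reference channel in this split. A Cy5 difference of that size or larger, in either direction, was found at 1.31% of the 26502 tested probes between D272fs and control and, at −0.45, at 5.88% between V235fs and control. Between the knock-ins, D272fs minus V235fs was −0.076 (SE 0.077) in Cy5 and −1.18 (SE 0.19) in Cy3. Without D272fs replicate 3 the D272fs means were 9.31 ± 0.16 in Cy3 and 10.37 ± 0.10 in Cy5 (SD, n = 3). The part of slide and scan day in the Cy5 differences was not tested.

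Among arrays at the same place on their slides, the D272fs array was the highest for M300013841 and the V235fs array for M400015708. This order was fixed in advance, because every array of the raised group lay above all other arrays, which is what the probes were chosen for. The values by position are therefore a description and no test of slide position. At position 4, M300013841 read 0.84 on the D272fs array, −0.54 on the V235fs array and −0.47, −0.38 and −0.48 on control replicates 1, 2 and 4. M400015708 read 0.22 on the V235fs array there, −1.27 on the D272fs array and −1.98, −1.11 and −0.88 on the controls. At position 1, with control replicate 3 as the only control, M300013841 read 1.43 in D272fs, −0.57 in V235fs and −0.53 in control. M400015708 read 0.28 in V235fs, −0.89 in D272fs and −1.49 in control.

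Both probes lay in column 65 of the array, M300013841 in row 376 and M400015708 in row 411. Spots around each were therefore examined, a check chosen after the values were seen. The 30 tested probes within 3 rows and columns of M300013841 had D272fs differences from control between −1.28 and 0.79, with a median of −0.017. The 30 around M400015708 had V235fs differences from control between −0.32 and 0.47, with a median of 0.0025.

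Among the tested probes with a value on every array, separation of this kind was uncommon, and it is what the 2 probes were chosen for. Tested probes were well above Cy3 background on at least 4 arrays, which a raised group could meet alone. All 4 D272fs arrays lay above the 8 others at 101 of 26448 probes (0.382%), M300013841 among them. There its gap, from the lowest D272fs array to the highest other array, was 0.94 log2 units and ranked 1 of 26448, followed by M200000713 with 0.22 and M200014321 with 0.22. All 4 V235fs arrays lay above the 8 others at 374 probes (1.41%). M400015708 had the widest gap there too, 0.59, followed closely by M400009408 with 0.55 and then M200008439 with 0.42. These gaps and shares, and the shares in the next paragraph, include D272fs replicate 3, whose Cy3 background the model put at −391.71. How far that array lowered the D272fs shares and gaps was not tested.

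Taken against control alone, the D272fs arrays lay above at 3.13% of probes and the V235fs arrays at 7.14%. Between the knock-ins, D272fs lay above V235fs at 2.30% and V235fs above D272fs at 4.79%. By size of difference from control, M300013841 ranked 9 of 26502 in D272fs and M400015708 ranked 11 of 26502 in V235fs, from the highest. At a limma adjusted p under 0.05, 9 probes (0.0340%) were called higher in D272fs than control, M300013841 among them, and 131 (0.494%) higher in V235fs than control, M400015708 among them. In this fit M300013841 was the 1 probe (0.00377%) called higher in D272fs than V235fs. That it stood alone depended on the fit. The probes called higher there numbered 333 without D272fs replicate 3 and 17 with a background from negative control spots. They numbered 22 with no background subtraction, 9 with Agilent's log ratios, and 0 under scale normalisation, median centring and the replicate block. M400015708 was not called between the knock-ins in this fit. It was called there without D272fs replicate 3, with array weights and in Cy3 alone, where 371, 1776 and 1550 probes were called. It was also called without that replicate under the background from negative control spots, where 396 probes were called. The calls that the members had in this fit chose the probes and support nothing about them. Each was lost under scale normalisation, median centring and the replicate block. Those of M300013841 were also lost in fits of only the groups compared, and its call between the knock-ins without V235fs replicate 1, 2 or 4 or D272fs replicate 2. That of M400015708 was also lost with slide position as a fixed block and without V235fs replicate 3 or 4.

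The probes whose log2 ratios followed the members most closely over the 12 arrays had smaller differences from control than the members in the knock-in where the member was raised. The arrays share 1 reference RNA and fall into 3 groups on separate slides, so the likeness is a description. For M300013841 they were M400014364 (Pearson r = 0.937), M400019054 (r = 0.921) and M200014025 (r = 0.886). Their D272fs differences from control were 0.18 (SE 0.06), 0.39 (SE 0.09) and 0.41 (SE 0.11), against 1.40 for M300013841. Their V235fs differences were 0.017, −0.058 and −0.11.

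For M400015708 the closest were M200014043 (r = 0.924), M400016892 (r = 0.917) and M400000414 (r = 0.914). They differed between V235fs and control by 0.58 (SE 0.13), 0.44 (SE 0.08) and 0.58 (SE 0.09), and between D272fs and control by 0.27 (SE 0.13), 0.25 (SE 0.08) and 0.31 (SE 0.09). Their mean D272fs levels lay between control and V235fs in Cy3 alone as well, where M400015708 was at −0.13 in D272fs. Their Cy3 differences were 0.21, 0.21 and 0.20 in D272fs and 0.53, 0.39 and 0.38 in V235fs. Where 26502 probes were tested, a Pearson r over 0.9 was reached by 2 for M300013841 and 7 for M400015708. How many would reach it without any link to the member was not tested.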

How the data were processed

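The deposited scanner files hold mean Cy3 and Cy5 intensities and local background intensities of each spot. They also hold log10 ratios (Cy5 over Cy3) made by Agilent Feature Extraction 11.5.1.1 after its own background subtraction and dye normalisation, per the file headers. The authors' deposited value table held the same log10 ratios, within 0.005; its column medians lay between 0 and 0.0035. Its direction and scale were settled by that comparison, and no further centring was found.

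In R 4.3.3, limma 3.58.1 was used for background correction (normexp, offset 50) and for loess within arrays, where control spots had weight 0. Outlier spots were left out, spots of a probe were averaged, and log2 ratios of Cy3 over Cy5 were used. Single channels (Cy3 alone and Cy5 alone) were rebuilt from the loess log ratio and the mean intensity, after quantile normalisation of that intensity between arrays. Of the mouse probes, 26502 were well above Cy3 background on at least 4 arrays and entered a limma fit of 3 group means over 12 arrays (Benjamini-Hochberg adjustment), which was tested on simulated data. The number of arrays limits the precision. The other named probes are the 3 with the highest Pearson r to each member; those listed by gap were named after their values were seen. The members and lists were chosen with earlier results of these data known. Alternatives covered background, normalisation, channel, filter, slide, scan day, position, replicate number, array weights, variance model, samples fitted and each array left out.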

Additional observations from a re-analysis of the deposited data

Results flagged for a closer look

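The log2 ratios of M300013841 lay on opposite sides of the control mean in the knock-ins: all 4 D272fs arrays lay above it and all 4 V235fs arrays below it, and the knock-ins differed by 1.49 on the log2 scale (1.40 for D272fs against control, −0.085 for V235fs against control). In the spleen channel alone V235fs lay above control (0.14), and the lower V235fs ratio goes with a higher Cy5 reference signal (0.23). The V235fs arrays overlapped the control arrays, and the difference was not tested because the probe was chosen for it. By Dixon's gap criterion, which finds only wide gaps among 4 values, no array was marked in the 18 sets of 4 member values examined (2 probes, 3 groups, and the log2 ratio and both channels), where chance gives about 1 in 20.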

How the results depend on the processing

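Over 29 alternatives other than the single channels, the D272fs difference of M300013841 from control kept its sign (0.85 to 1.82), as did its difference from V235fs (1.20 to 1.94) and the V235fs difference of M400015708 from control (1.17 to 1.66). Values that moved by more than 1 SD came from few settings. Scale normalisation gave M300013841 1.82 (D272fs against control) and 1.94 (D272fs against V235fs), and M400015708 −1.75 (D272fs against V235fs) and, with the sign turned, −0.50 (D272fs against control). Median centring gave M300013841 0.85, −0.35 (V235fs against control) and 1.20, and turned the D272fs difference of M400015708 from control to −0.064; it also moved the median of all tested probes to −0.25 in D272fs and −0.15 in V235fs. Position as a fixed block gave M300013841 −0.020 in V235fs. Cy3 alone gave M300013841 0.14 in V235fs and 1.20 between the knock-ins, and M400015708 1.04 in V235fs and −0.13 in D272fs. Cy5 alone gave M300013841 −0.063, 0.23 and −0.29, and M400015708 −0.53, −0.45 and −0.076 (D272fs against control, V235fs against control, D272fs against V235fs). Leaving out 1 array at a time gave 1.24 to 1.53, −0.11 to −0.056 and 1.33 to 1.62 for M300013841, and 0.19 to 0.56, 1.29 to 1.66 and −1.19 to −1.0003 for M400015708.

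The counts of called probes in the same 3 comparisons, 20, 225 and 1, moved much more, and the causes were not tested. They were 209, 2811 and 29 with no background subtraction, 3 and 46 with an offset of 0, and 216, 2184 and 23 with a background from negative control spots. Leaving out D272fs replicate 3 as well, a setting chosen after seeing the data, gave 100, 1808 and 396. Agilent's log ratios gave 122, 2303 and 11, the authors' values 122, 2294 and 11, scale normalisation 7, 14 and 0, and median centring 3, 6 and 0, with 0 of those 3 and 0 of those 6 higher. Cy3 alone gave 2915 and 1550 in the second and last, and Cy5 alone 1851, 7102 and 3823. Slide as a random block gave 5 and 50, scan day 5 and 26, and position as a fixed block 7, 7 and 12. Array weights gave 3357, 7637 and 1776, a trended and robust variance 60, 480 and 2, and fits of only the groups compared 2, 1013 and 4. Without 1 array the counts ran from 3 to 101, 17 to 1393 and 0 to 371, each highest without D272fs replicate 3. The last comparison had 0 limma calls in several settings, where an unadjusted p under 0.05 was found for 2267 probes (scale), 1134 (median centring), 3353, 1881 and 3053 (without V235fs replicate 1, 2 or 4) and 3566 (without D272fs replicate 2).

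Replicate numbers did not pair the arrays: 0 of 12 correlated best with their own number in both other groups. The replicate block gave counts of 2 (0 higher), 15 and 0 (2533 at an unadjusted p under 0.05). It ended the calls of both members and left the members' differences at 1.40, −0.085 and 1.49 for M300013841 and 0.39, 1.49 and −1.10 for M400015708.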
